A study of Mus musculus with 8 samples.

Results

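Glycogen synthesis and breakdown was followed in mouse liver through 9 genes, picked by symbol from the 22481 genes of the deposited table: Gys2, Pygl, Gbe1, Ugp2, Gyg, Ppp1r3b, Ppp1r3c, Phka2 and Phkg2. All 9 were found, each as a single row, and all 9 passed the filter on low values. RNA came from the livers of 4 db/db and 4 lean male mice, in a study whose title concerns nonalcoholic fatty liver disease and the deubiquitylating enzyme RPN11. Mice of the db/db line lack the signalling form of the leptin receptor (gene Lepr) in every tissue, overeat, and become obese and diabetic. The lean samples carry the strain label C57BL/6, while the strain label of the other group is db/db alone, and the sources used here do not give the age. Mice were kept pathogen-free with free access to food and water.

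Glycogen is the branched glucose store of the liver, filled after meals under insulin and emptied in fasting under glucagon and adrenaline. UDP-glucose pyrophosphorylase (Ugp2) makes the activated sugar, glycogenin (Gyg) starts the chain on itself, glycogen synthase (Gys2) lengthens it and the branching enzyme (Gbe1) adds the branches. Glycogen phosphorylase (Pygl) releases glucose 1-phosphate and is switched on by phosphorylase kinase, of which Phka2 and Phkg2 encode liver forms of the regulatory alpha and the catalytic gamma subunit. Ppp1r3b and Ppp1r3c encode subunits that bring protein phosphatase 1 to the glycogen particle, where it activates the synthase and inactivates the phosphorylase.

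Levels are FPKM, which divides fragments by transcript length and library total, so genes can be set side by side per length. Each library held 12174800 to 16171700 estimated fragments in protein-coding genes. Of 10943 genes tested with limma on log2(FPKM + 1), 26.4% differed between the groups at a Benjamini-Hochberg adjusted p below 0.05, with 15.5% higher and 10.9% lower in db/db, and the median log2 fold change was 0.04. Lepr had 0.530 to 0.720 FPKM in db/db and 0.461 to 0.953 in lean, which does not check the genotype, since the mutation acts on splicing. Sample db/db 1 stood apart from the other db/db samples on the second principal component (score 29.6 against -15.0 to -4.59). Hepatocyte genes were abundant in every sample, with Ttr at 3803 FPKM or more, although Alb was listed at 0 in all 8. Nothing in the labels names the animal behind each sample, so p-values reflect how far these samples vary, some of which may be technical. In these bulk samples fewer cells of a type and less RNA per cell cannot be told apart.

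In db/db liver the glycogen synthase gene fell while the other genes of chain building and both phosphatase-targeting subunits among the 9 genes rose. The call of Ppp1r3c was not stable, and Ppp1r3e, a targeting subunit outside the 9, was called lower from few fragments. Of the 9 genes, 5 rose (Gbe1, Ugp2, Gyg, Ppp1r3b and Ppp1r3c), Gys2 fell, and Pygl, Phka2 and Phkg2 did not pass the threshold. The shares of all genes tested were 15.5% higher and 10.9% lower. The median log2 fold change of the 9 was 0.62. Without db/db 1 the count was 4 higher and 1 lower, Ppp1r3c having lost its call (limma adjusted p = 0.0766). FPKM of the groups did not overlap for Gys2, Gbe1, Ugp2, Gyg and Ppp1r3b, as was so for 28.4% of all genes tested (16.9% higher and 11.6% lower in db/db). For each of these 5 an exact 2-sided permutation test of FPKM gave p = 0.0286, the smallest that 4 against 4 samples allow. That value follows from the lack of overlap and adds nothing to it.

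**Figure D1:**
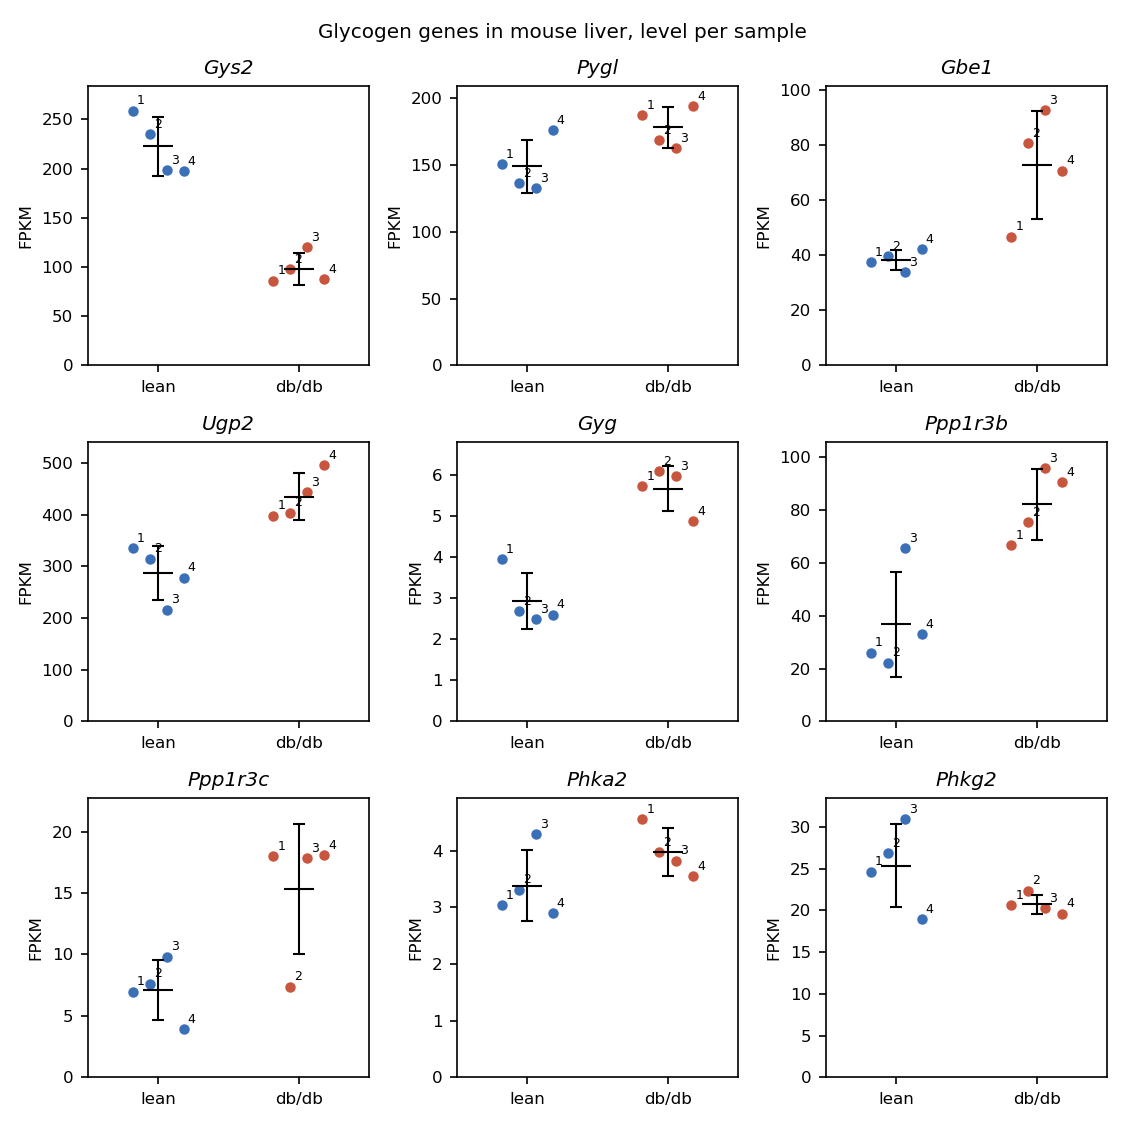
FPKM of the 9 glycogen genes in each liver sample, with lean in blue and db/db in red, replicate numbers beside the points, and horizontal marks with bars for mean ± SD (n = 4 per group). Gys2 lies between 86.15 and 121 FPKM in db/db against 198 to 259 in lean, while Ppp1r3c in db/db 2 lies among the lean samples.

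The order of FPKM levels changed at the top of the list. In lean liver mean FPKM ran from Ugp2 (286) through Gys2 (223), Pygl (149), Gbe1 (38.4), Ppp1r3b (36.7), Phkg2 (25.4), Ppp1r3c (7.09) and Phka2 (3.38) to Gyg (2.93). Neighbours whose ranges overlapped in lean were Ugp2 with Gys2, Gbe1 with Ppp1r3b, Ppp1r3b with Phkg2, Ppp1r3c with Phka2, and Phka2 with Gyg. In db/db liver the order was Ugp2 (435), Pygl (178), Gys2 (98.0), Ppp1r3b (82.1), Gbe1 (72.9), Phkg2 (20.7), Ppp1r3c (15.3), Gyg (5.66) and Phka2 (3.98). There the overlapping neighbours were Gys2 with Ppp1r3b and Ppp1r3b with Gbe1. By mean FPKM Gys2 thus went from above Pygl to below it, and Gyg from below Phka2 to above it. The place of Gys2 in lean liver rests on the length behind its FPKM: by CPM, estimated fragments scaled to the library total and not divided by length, its lean mean was 440, against 491 for Pygl.

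Gys2 (ENSMUSG00000030244, mm10 chromosome 6, 142422613 to 142473109, minus strand) encodes the liver glycogen synthase, the enzyme that sets the pace of chain growth. Its level was 86.15, 97.7, 121 and 87.8 FPKM in db/db 1 to 4, and 259, 235, 199 and 198 FPKM in lean 1 to 4. Every db/db sample lay below every lean sample, with db/db 3 the highest of its group. The group means were 98.0 ± 15.9 and 223 ± 29.9 FPKM (SD, n = 4 each), a 2.27-fold lower level in db/db (log2 fold change -1.18, SE 0.14, limma adjusted p = 0.000167).

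Pygl (ENSMUSG00000021069, chromosome 12, 70190811 to 70231488, minus strand) encodes the liver phosphorylase, the enzyme that sets the pace of breakdown. Its level was 188, 169, 162 and 194 FPKM in db/db 1 to 4, and 151, 136, 133 and 176 FPKM in lean 1 to 4. The groups overlapped through lean 4, which lay above db/db 2 and 3. Means were 178 ± 15.1 and 149 ± 19.8 FPKM (log2 fold change 0.26, 95% interval 0.0048 to 0.52, limma adjusted p = 0.124). No difference was called after adjustment over all genes. The interval, which is not adjusted, lay narrowly on the positive side and reached up to 0.52.

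Set against each other within a liver by FPKM, synthase exceeded phosphorylase in all lean samples and fell short of it in all db/db samples. The log2 ratio of Gys2 to Pygl FPKM was 0.78, 0.79, 0.58 and 0.16 in lean 1 to 4, and -1.12, -0.79, -0.43 and -1.15 in db/db 1 to 4. The mean ratio was -0.87 in db/db and 0.58 in lean, values that carry no test because the genes were chosen with results known. By CPM the log2 ratio was -0.02, 0.11, -0.34 and -0.40 in lean 1 to 4, and -1.36, -1.29, -1.03 and -1.59 in db/db 1 to 4. The groups stayed apart by both measures, but by CPM Gys2 exceeded Pygl in lean 2 alone, so which of them is higher in lean liver depends on the length used. The ratio of Gbe1 to Gys2 moved the other way, from -2.53 ± 0.23 in lean to -0.46 ± 0.28 in db/db (SD, n = 4 each), and the groups did not overlap. These are ratios of RNA levels per length and not of enzyme activity.

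**Figure D2:**
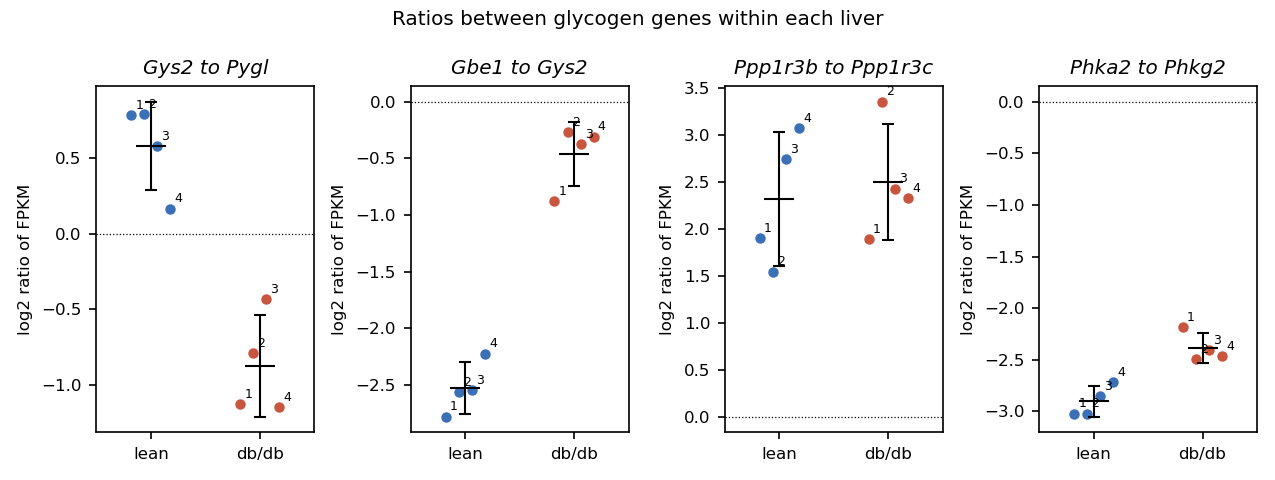
Log2 ratio of FPKM between 2 glycogen genes within each liver, for 4 pairs, with mean ± SD (n = 4 per group), replicate numbers beside the points and a dotted line at equal levels. Gys2 to Pygl is above 0 in all 4 lean samples and below 0 in all 4 db/db samples, while Ppp1r3b to Ppp1r3c overlaps between the groups.

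The 3 other genes of chain building, which act before and beside the synthase, all rose. Ugp2 (ENSMUSG00000001891, chromosome 11, 21321138 to 21371201, minus strand) had the highest level of the 9 genes in both groups, at 398, 404, 443 and 496 FPKM in db/db 1 to 4, and 336, 315, 216 and 278 FPKM in lean 1 to 4. The lowest db/db sample stood above the highest lean sample, lean 1. Mean levels of 286 ± 52.3 in lean and 435 ± 45.2 in db/db made a 1.52-fold rise (log2 fold change 0.62 with an SE of 0.15, limma adjusted p = 0.0104). An exon of Gm12043 overlaps Ugp2 on the opposite strand, and reads of both cannot be told apart if strand was not used in counting.

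Gbe1 (ENSMUSG00000022707, chromosome 16, 70313949 to 70569716, plus strand), the branching enzyme, had 46.8, 81.0, 92.9 and 70.8 FPKM in db/db 1 to 4, and 37.7, 39.8, 33.9 and 42.3 FPKM in lean 1 to 4. The lean samples were close together, and db/db 1 was nearer to them than to the other db/db samples. Its mean rose from 38.4 ± 3.56 to 72.9 ± 19.6 FPKM, or 1.897-fold (log2 fold change 0.87 with an SE of 0.18, limma adjusted p = 0.00623). In the deposited table it shares its locus with 1 other row, 4930423O20Rik, so its level is uncertain to that extent.

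Gyg (ENSMUSG00000019528, chromosome 3, 20122084 to 20155317, minus strand), the glycogenin primer, was low, at 5.72, 6.10, 5.97 and 4.87 FPKM in db/db 1 to 4, and 3.96, 2.69, 2.49 and 2.60 FPKM in lean 1 to 4. The groups did not overlap, and lean 1 was the lean sample nearest to db/db. Starting from 2.93 ± 0.69 FPKM in lean, it rose 1.93-fold to 5.66 ± 0.55 (log2 fold change 0.77 with an SE of 0.14, limma adjusted p = 0.00267). Behind these levels are 57 to 114 estimated fragments in each lean sample and 135 to 180 in each db/db one.

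Among the 9 genes both targeting subunits of protein phosphatase 1 rose. Ppp1r3b had the highest fitted log2 fold change of the 9 and Ppp1r3c the least stable call. Ppp1r3b (ENSMUSG00000046794, chromosome 8, 35375739 to 35388139, plus strand), also known as the liver subunit GL, had 66.7, 75.4, 95.8 and 90.6 FPKM in db/db 1 to 4, and 26.1, 22.2, 65.7 and 32.9 FPKM in lean 1 to 4. Lean 3 lay far above the other lean samples and just under db/db 1. Between means of 36.7 ± 19.8 in lean and 82.1 ± 13.5 in db/db the rise was 2.24-fold (log2 fold change 1.25 with an SE of 0.28, limma adjusted p = 0.00809), and without lean 3 the log2 fold change was 1.57 (limma adjusted p = 0.000226). Its deposited locus is shared with 5 other rows.

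Ppp1r3c (ENSMUSG00000067279, chromosome 19, 36731731 to 36736653, minus strand), also known as PTG, had 17.99, 7.38, 17.8 and 18.1 FPKM in db/db 1 to 4, and 6.99, 7.63, 9.83 and 3.91 FPKM in lean 1 to 4. Of the db/db samples 3 lay above every lean sample, and db/db 2 lay below lean 2 and lean 3. Means were 7.09 ± 2.44 in lean and 15.3 ± 5.29 in db/db, a 2.16-fold rise (log2 fold change 0.99 with an SE of 0.30, limma adjusted p = 0.0330). An exact 2-sided permutation test of FPKM gave p = 0.0857. The call was lost when db/db 1, 3 or 4 or lean 1, 2 or 4 was left out (limma adjusted p = 0.0557 to 0.0877) and without the filter on low values (0.0800). Leaving out db/db 2 gave a log2 fold change of 1.28 (limma adjusted p = 0.00423).

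The log2 ratio of Ppp1r3b to Ppp1r3c was 2.50 ± 0.61 in db/db and 2.31 ± 0.71 in lean, so within a liver the level of Ppp1r3b exceeded that of Ppp1r3c in all 8 samples. The ratio ranged from 1.54 in lean 2 to 3.35 in db/db 2, and the groups overlapped.

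Since several of these genes rose together, the 250 bases before their RefSeq start sites were searched for a few regulatory motifs. RefSeq (GRCm38.p6) had an entry for 7 of the 9 genes in 8 windows, Ugp2 having 2 start sites, and none was used for Gys2 and Ppp1r3b. RefSeq starts can differ from the GENCODE coordinates given for each gene. The windows of Pygl and of the inner start of Ugp2 lie inside the GENCODE gene. That of Gyg lies mostly inside it, and those of Ppp1r3c and Phkg2 reach partly into it. The motifs were CACGTG (an E-box, the same on both strands), TGACGTCA (the cAMP response element, also the same on both strands) and GTAAACA with its reverse complement TGTTTAC (bound by forkhead factors). CACGTG lay in 1 of the 8 windows, that of Ppp1r3c, 104 to 99 bases before the start, and in 6.02% of the 32851 windows of all genes. TGACGTCA and GTAAACA lay in 0 of the 8, and in 1.55% and 3.17% of all windows. The upstream windows of 4 genes that rose are printed 5′ to 3′ on the strand of the gene, with the E-box in capitals, to set the window that holds it beside those that do not. They are Ppp1r3c at chr19:36736605-36736854 (minus strand), Gbe1 at chr16:70313699-70313948 (plus strand), Gyg at chr3:20155117-20155366 (minus strand) and the outer start of Ugp2 at chr11:21371268-21371517 (minus strand). A match describes these letters and is not evidence of binding.
Ppp1r3c: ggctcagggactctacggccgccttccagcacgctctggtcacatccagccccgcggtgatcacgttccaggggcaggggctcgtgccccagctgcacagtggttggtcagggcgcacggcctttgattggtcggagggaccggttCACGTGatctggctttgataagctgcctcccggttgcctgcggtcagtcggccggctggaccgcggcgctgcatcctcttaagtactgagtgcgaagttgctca
Gbe1: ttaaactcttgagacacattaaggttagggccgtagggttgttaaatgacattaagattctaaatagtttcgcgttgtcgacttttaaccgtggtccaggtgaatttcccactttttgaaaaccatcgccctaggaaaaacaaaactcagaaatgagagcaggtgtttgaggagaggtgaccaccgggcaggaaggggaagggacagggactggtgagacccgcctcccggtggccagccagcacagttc
Gyg: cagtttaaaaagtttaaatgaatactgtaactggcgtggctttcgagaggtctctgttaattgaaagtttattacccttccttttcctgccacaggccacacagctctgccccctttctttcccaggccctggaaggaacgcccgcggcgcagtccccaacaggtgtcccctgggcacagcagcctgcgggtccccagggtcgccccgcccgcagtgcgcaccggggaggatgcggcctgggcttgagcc
Ugp2: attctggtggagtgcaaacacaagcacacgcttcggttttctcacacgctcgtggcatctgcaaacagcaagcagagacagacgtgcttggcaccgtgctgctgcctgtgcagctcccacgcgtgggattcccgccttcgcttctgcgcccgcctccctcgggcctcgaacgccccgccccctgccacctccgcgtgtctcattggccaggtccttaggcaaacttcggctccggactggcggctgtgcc

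Neither phosphorylase kinase subunit was called. Phka2 (ENSMUSG00000031295, chromosome X, 160502166 to 160598878, plus strand), the alpha subunit, had 4.56, 3.98, 3.82 and 3.56 FPKM in db/db 1 to 4, and 3.04, 3.31, 4.28 and 2.89 FPKM in lean 1 to 4. Lean 3 lay within the db/db range and the other lean samples below it. The log2 fold change was 0.19 (95% interval -0.10 to 0.48, limma adjusted p = 0.318), and exons of the antisense gene Gm15243 overlap Phka2.

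Phkg2 (ENSMUSG00000030815, chromosome 7, 127573340 to 127583307, plus strand), the catalytic gamma subunit, had 20.7, 22.4, 20.2 and 19.6 FPKM in db/db 1 to 4, and 24.7, 26.9, 31.0 and 19.0 FPKM in lean 1 to 4. Lean 4 lay below all db/db samples and the other lean samples above them. The log2 fold change was -0.26 (95% interval -0.57 to 0.05, limma adjusted p = 0.198), and without lean 4 it was -0.39 and passed the threshold (limma adjusted p = 0.0389). Its exons overlap those of Ccdc189 on the opposite strand and its deposited locus is shared with 1 other row, Gm166, so its level is uncertain. Although neither gene was called, the log2 ratio of Phka2 to Phkg2 was -2.39 ± 0.14 in db/db and -2.90 ± 0.15 in lean, with no overlap between the groups. This ratio carries no test, since the genes were chosen with results known, and it shares the uncertainty of Phkg2. How often the ratios of other gene pairs separate the groups was not examined. Lean 3 was highest of the lean samples for both subunits and lean 4 lowest for both.

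The same direction was found when the genes were measured by estimated fragments in place of FPKM, but sizes differed for 3 of them. With voom on estimated fragments the same 5 members rose and Gys2 fell, where 28.9% of all genes were called (15.4% higher and 13.5% lower). As CPM Gys2 had 243, 233, 269 and 212 in db/db 1 to 4, and 490, 485, 347 and 438.5 in lean 1 to 4. The groups stayed apart, as they did for Gbe1 and Ugp2 and for 31.1% of all genes tested. By CPM Gys2 was 1.84-fold lower in db/db, against 2.27-fold by FPKM. Gbe1 was 2.27-fold higher by CPM and 1.897-fold by FPKM, and Ugp2 was 1.86-fold higher against 1.52-fold. By CPM db/db 1 was no longer near the lean samples for Gbe1: it had 164, the rest of its group 202 to 207, and lean 4, the highest lean sample, 107.

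**Figure D3:**
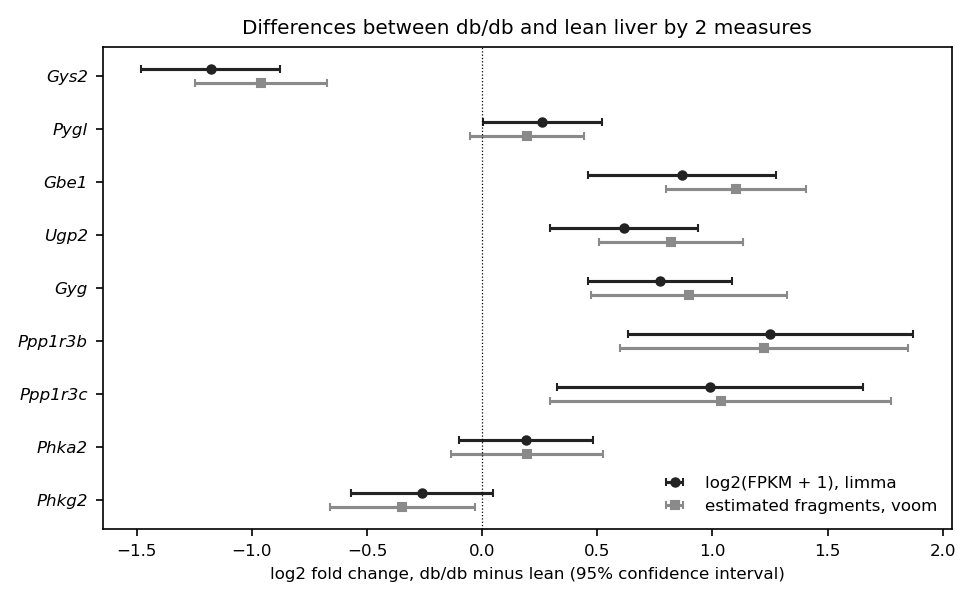
Log2 fold change of each glycogen gene, db/db minus lean, with its 95% confidence interval, from limma on log2(FPKM + 1) (circles) and from voom on estimated fragments (squares), n = 4 per group. Gys2 alone lies below 0 with an interval clear of it in both, at -1.18 and -0.96, and Gbe1 and Ugp2 lie farther to the right by fragments.

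For 6 of the genes the deposited fragment signal per unit of FPKM was nearly constant over the 8 samples, its highest value being 1.004 to 1.10 times its lowest. For Gys2 it ran from 24.5 in lean 3 to 38.8 in db/db 1, for Gbe1 from 28.8 in lean 1 to 48.2 in db/db 1, and for Ugp2 from 25.6 in lean 1 to 37.3 in db/db 1. All 3 were highest in db/db 1, and their highest values were 1.59, 1.68 and 1.46 times their lowest. A spread above 1.2 times was found in 31.7% of 10849 genes tested, a limit chosen after the values were seen. GENCODE M21 lists 2 coding transcripts for Gys2, of 314 and 2657 bases, 4 for Gbe1 and 2 for Ugp2. The sources used here do not say which transcripts the authors' lengths stand for, and the part of assigned length in the FPKM differences of these 3 genes was not tested.

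**Figure D4:**
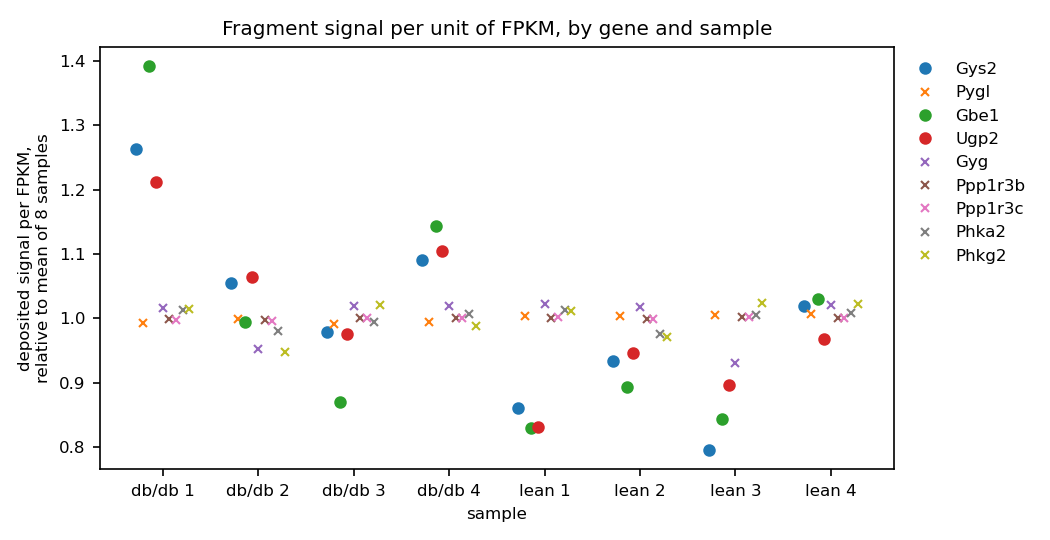
Deposited fragment signal per unit of FPKM in each sample, relative to the mean of the gene over the 8 samples, with circles for Gys2, Gbe1 and Ugp2 and crosses for the other 6 genes. The crosses lie close to 1 in every sample, while all 3 circles are highest in db/db 1.

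Beyond the 9 genes, 48 others of glycogen metabolism in 5 lists were examined, of which 40 passed the filter, 11 rose and 3 fell. This is 14 of 40, beside 26.4% of all genes tested (15.5% higher and 10.9% lower). The counts of each list below are to be read beside those shares. Among 10 other enzymes and proteins of the glycogen particle 2 rose and 1 fell, with a median log2 fold change of 0.05. The 2 that rose were Epm2a and Nhlrc1, which encode laforin and malin, the phosphatase and the ubiquitin ligase lost in Lafora disease, in which abnormal glycogen builds up. Epm2a had 2.69, 2.38, 2.13 and 2.90 FPKM in db/db 1 to 4, and 0.891, 0.841, 0.491 and 0.901 in lean 1 to 4. Nhlrc1 had 1.17, 2.08, 1.57 and 1.56 FPKM in db/db 1 to 4, and 0.527, 0.370, 0.201 and 0.322 in lean 1 to 4. For both genes every db/db sample lay above every lean sample. Epm2a rose 3.23-fold and Nhlrc1 4.49-fold as ratios of mean FPKM (log2 fold changes 0.99 and 0.93 on the log2(FPKM + 1) scale, limma adjusted p = 0.000362 and 0.000688), both from low levels, with 7 to 21 estimated fragments of Nhlrc1 per lean sample. Among the lean samples Nhlrc1 reached the 0.5 FPKM of the filter in lean 1 alone. It passed through the db/db samples, so its p-value is not independent of that filter.

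Stbd1, a glycogen-binding protein that takes part in its lysosomal breakdown, fell 1.35-fold to 34.3 ± 3.58 FPKM in db/db, against 46.4 ± 4.27 in lean (limma adjusted p = 0.0159). This call was lost without lean 1 (limma adjusted p = 0.0519). The member of that list with the highest level, the phosphoglucomutase gene Pgm2 (ENSMUSG00000025791), shares its locus with 2 other rows and stood at 87.4 ± 6.56 FPKM in db/db beside 87.2 ± 2.19 in lean (log2 fold change 0.00, 95% interval -0.20 to 0.20, limma adjusted p = 0.992).

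Of 5 other phosphatase subunits tested, Ppp1ca rose and Ppp1r3e fell (median log2 fold change 0.35). Ppp1ca, a catalytic subunit, rose 1.46-fold and had 75.2 ± 8.97 FPKM in db/db beside 51.6 ± 1.16 in lean (limma adjusted p = 0.00420), at a locus shared with 1 other row. Ppp1r3e, a further glycogen-targeting subunit, had 0.260, 0.0800 and 0.383 FPKM in db/db 1 to 3 and far less than 1 fragment in db/db 4, against 2.62, 2.39, 2.31 and 2.24 FPKM in lean 1 to 4. It therefore fell while Ppp1r3b and Ppp1r3c rose (limma adjusted p = 1.85e-05), and no fold is given. The levels rest on at most 11 estimated fragments in any db/db library and 21.1 to 38.4 in the lean ones. Ppp1r3e passed the filter through the lean samples alone, so its p-value is not independent of that filter. With voom its adjusted p was 0.00738, and with limma on the columns headed counts 0.0115, both after the same filter. The part of assigned length in its FPKM difference was not tested. Of 5 other phosphorylase kinase subunits, 2 rose and 0 fell (median 0.05). Phkb, the beta subunit, was 1.37-fold higher, at 12.2 ± 0.998 FPKM in db/db (limma adjusted p = 0.0263). The Phkb call was lost without db/db 2 or 4 or lean 1, 3 or 4 (limma adjusted p = 0.0533 to 0.0741). Calm2, at a locus shared with 2 other rows and with 71.5 ± 10.8 FPKM in db/db and 75.7 ± 5.14 in lean, was not called (limma adjusted p = 0.604).

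Among 7 genes for the entry and exit of glucose, 3 rose and 0 fell (median 0.08). G6pc, the glucose 6-phosphatase that frees glucose at the end of glycogen breakdown, had 365, 242, 248.96 and 254 FPKM in db/db 1 to 4, and 85.9, 103, 104 and 199 in lean 1 to 4. The groups did not overlap, and db/db 1 and lean 4 stood above the rest of their groups. It rose 2.25-fold (log2 fold change 1.22, SE 0.24, limma adjusted p = 0.00393). Slc2a2, the liver glucose transporter GLUT2, rose 1.51-fold to 131 ± 10.6 FPKM (limma adjusted p = 0.0039), at a locus shared with 1 other row, and Gckr, a regulatory protein of glucose phosphorylation, rose 1.99-fold to 54.7 ± 4.27 FPKM (limma adjusted p = 0.000484).

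Of 13 hormone signalling genes 3 rose and 1 fell (median 0.12). Adra1b, the adrenergic receptor through which catecholamines raise calcium in mouse liver, had 27.5, 28.1, 25.3 and 27.9 FPKM in db/db 1 to 4, and 8.58, 10.3, 11.3 and 10.4 in lean 1 to 4. Both groups were tight and far apart, and the rise was 2.68-fold (log2 fold change 1.34, SE 0.11, limma adjusted p = 1.31e-05). Avpr1a, the vasopressin receptor of hepatocytes, which also acts through calcium, fell 2.39-fold from 4.29 ± 0.27 to 1.79 ± 0.52 FPKM (limma adjusted p = 0.00120). The catalytic subunits of protein kinase A, which passes the glucagon signal to phosphorylase kinase, rose 1.44-fold for Prkaca and 1.41-fold for Prkacb (limma adjusted p = 0.0131 and 0.00906). Gcgr, the glucagon receptor, was not called, with 105 ± 16.3 FPKM in lean beside 82.1 ± 7.26 in db/db (log2 fold change -0.35, 95% interval -0.62 to -0.07, limma adjusted p = 0.0611). Every db/db sample nonetheless lay below every lean sample, as was so for 11.6% of all genes tested. Gcgr passed the threshold as lower with voom (adjusted p = 0.0240), on the columns headed counts (0.0368) and with median-ratio scaling (0.0362).

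**Figure D5:**
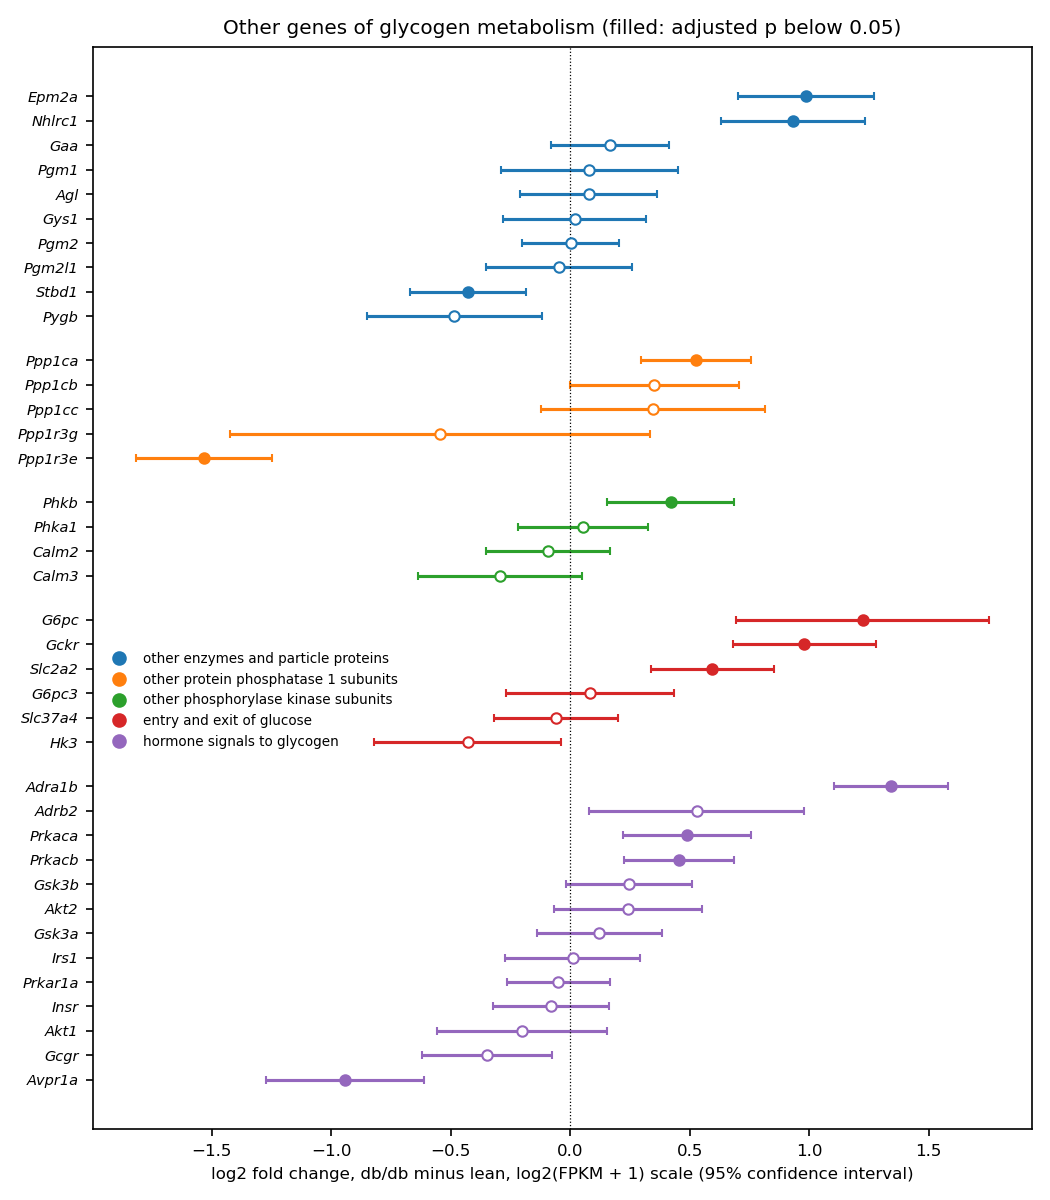
Log2 fold change of 38 other genes of glycogen metabolism, db/db minus lean on the log2(FPKM + 1) scale, with 95% confidence intervals, grouped by list in colour and filled where the limma adjusted p was below 0.05 (n = 4 per group). Adra1b and G6pc lie farthest to the right, at 1.34 and 1.22, and Ppp1r3e farthest to the left, at -1.53.

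The genes most like Gys2 and Pygl over the 8 samples were taken as those with the smallest root mean square difference in log2(FPKM + 1), each gene centred on its lean mean. For Gys2 these were Rps13, Dnase2a, Sel1l3, Rpl12 and Tlr12, with differences of 0.15 to 0.17 on the log2 scale. Rps13, a ribosomal protein gene, had 85.0 FPKM on average in db/db and 177 in lean. Sel1l3 had 0.592 and 2.82 FPKM and Tlr12 0.107 and 1.41, so as ratios of FPKM both fell further than Gys2. At such low levels the 1 added before the logarithm shrinks the difference, which brings them near Gys2 on this scale. Tlr12 passed the filter through the lean samples alone. For Pygl these were Ostc, Dnpep, Eif4e, Bpnt1 and Lpp, with differences of 0.05 to 0.07. These 5 were not called either (limma adjusted p = 0.0639 to 0.241), which follows from their choice by likeness to Pygl on the same values.

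Marker genes of other cells were examined beside these results. Of all genes tested 15.5% were called higher and 10.9% lower, so counts from such short lists are not read as results about a cell type. Skeletal muscle markers, relevant to the muscle isoforms Gys1 and Pygm, summed to 0 FPKM in every db/db sample and to at most 0.0959 in lean, with Ckm, Myh2 and Tnnt3 at 0 throughout. Of 5 Kupffer cell markers 2 fell (sums of 68.2 to 90.3 FPKM in db/db and 89.5 to 145 in lean), and 1 of 5 sinusoidal endothelial markers fell (42.6 to 47.2 and 52.2 to 63.5). Of 5 stellate cell markers 1 fell (13.4 to 16.6 and 14.8 to 18.8), and 0 of 3 cholangiocyte markers tested were called (35.7 to 53.0 and 29.7 to 51.6). Blood markers, 4 in all with 0 called, summed to 283 to 359 FPKM in db/db and 278 to 811 in lean. Lean 1 had the highest sum and was also the highest lean sample for Gys2, Ugp2 and Gyg. Of the 4 neutrophil markers, with 0 of 2 tested called, Ly6g was at 0 throughout, and the sums were 1.59 to 10.4 and 5.57 to 63.9. The highest was lean 3, with S100a8 at 34.3 and S100a9 at 29.5 FPKM, the lean sample that was also highest for Ppp1r3b, Ppp1r3c, Phka2 and Phkg2. The same sample was the lowest lean sample for Pygl, Gbe1, Ugp2 and Gyg. Of 5 hepatocyte markers tested 3 fell, with sums of 6523 to 8608 and 23207 to 29210 FPKM, and of the listed symbols Tf was not matched. Most of that gap was Apoa1, an apolipoprotein gene, at 588 to 1221 FPKM in db/db and 13473 to 18621 in lean, while Cps1 and Hnf4a were not called (limma adjusted p = 0.453 and 0.0766). Periportal markers (0 of 4 called) summed to 1849 to 2453 FPKM in db/db and 1809 to 2422 in lean. Of 4 pericentral markers Oat rose, and their sums were 4012 to 5325 and 4451 to 5631. The part of any of these in the glycogen genes was not tested.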

How the data were processed

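Liver total RNA was depleted of ribosomal RNA and made into stranded libraries, per the labels' protocols. The submitters' processing notes name the build mm10 and the tools HISAT2 2.0.4, Cufflinks, Cuffdiff and cutadapt 1.9.3, without their roles, and the sources used here do not say whether counting used strand. The authors deposited FPKM per sample, with an unstated transcript length, and columns headed counts, which hold a normalized signal. The deposited signal is estimated fragments divided by a size factor: 91.4 to 92.0% of values below 2000 steps were whole multiples of a step of 0.850 to 1.14 per library, within 0.05 of a step. Dividing by the step gave estimated fragments, 12174800 to 16171700 per sample. Since not all were whole, no negative binomial test was run, and voom on the estimated fragments was an alternative.

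Of 22565 rows 1 was empty. Rows of the same symbol were summed, giving 22481 genes, and genes with at least 0.5 FPKM in at least 4 samples entered the test. Values of log2(FPKM + 1) were fitted for all 10943 genes with limma 3.58.1 in R 4.3.3 with a mean trend in eBayes; tests were 2-sided and p-values were adjusted by Benjamini-Hochberg over all genes, with a threshold of 0.05. The log2(FPKM + 1) scale understates changes of low genes. Folds are ratios of means. Gene coordinates are from GENCODE M21 (GRCm38, the same build as mm10). Groups and replicate numbers come from the sample titles, and no pair of replicates agreed within sampling noise (chi-square per gene of 13.2 or more). The members, lists and tests were chosen with earlier results of these data known. Named genes were the 9 members, called genes and the highest gene of each of the 5 lists, and the 5 genes most alike to Gys2 and to Pygl. The alternatives numbered 19. A few genes of the lists are not reported here but stay in the counts.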

Additional observations from a re-analysis of the deposited data

Results flagged for a closer look

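Of 52 groups of 4 samples examined for the genes named, 7 held a sample whose gap to its nearest neighbour exceeded the 95% critical value of Dixon's ratio (the gap as a share of the range of the group). Chance flags about 1 group in 20. Ppp1r3c in db/db 2 was lowest of its group, at 7.38 FPKM (gap share 0.976), and with this sample the groups overlap. Gyg in lean 1 was highest, at 3.96 FPKM (0.865). G6pc was highest in db/db 1, at 365 FPKM (0.901), and in lean 4, at 199 FPKM (0.838). Gcgr was highest in lean 3, at 129 FPKM (0.835), Epm2a was lowest in lean 3, at 0.491 FPKM (0.853), and Pgm2 was lowest in lean 4, at 83.9 FPKM (0.900).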

How the results depend on the processing

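Gys2, Gbe1, Ugp2, Gyg and Ppp1r3b kept their direction and call in all 19 alternatives, and Pygl and Phka2 stayed without a call, with the direction kept. The log2 fold change ranged from -1.28 to -0.91 for Gys2, 0.74 to 1.16 for Gbe1, 0.49 to 0.87 for Ugp2, 0.72 to 0.97 for Gyg and 1.062 to 1.57 for Ppp1r3b. Ppp1r3c kept its call in 12 of 19 (adjusted p = 0.00423 to 0.0877). Leaving out 1 sample gave 4 to 5 members higher, 1 to 2 lower and 2271 to 2650 of all genes called. The count of 2 lower came without lean 4, through Phkg2. Median-ratio rescaling gave 1459 genes higher and 1398 lower, against 1694 and 1198, with a median log2 fold change of -0.01 over all genes. Replicate numbers are shared by the groups, but deviations of same-numbered samples correlated at -0.22, 0.03, 0.11 and -0.01, and not every sample correlated best with its own number. They were therefore not treated as pairs. With a replicate block 5 members were higher, 1 lower and 2514 genes called. Pgm2, near 0, changed sign in 5 alternatives. A planned negative binomial test on whole counts was not run, while voom on estimated fragments was. Estimated fragments per lean sample were fewest for Gyg (57 to 114), then Phka2 (176 to 265) and Ppp1r3c (160 to 410) by mean, which limits their precision.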

Other observations

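Ppp1r3g, a further glycogen-targeting subunit of protein phosphatase 1, had no call but varied widely among the lean samples, and is named here after its values were seen. It had 1.70, 1.28, 0.418 and 5.68 FPKM in lean 1 to 4 and 0.266 to 1.39 in db/db. Lean 3 thus had the highest Ppp1r3b and the lowest Ppp1r3g of the lean samples. The others did not follow that order: lean 4, highest for Ppp1r3g, had more Ppp1r3b than lean 1 and lean 2.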
